A study of Mus musculus with 2 samples.

Results

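The genes examined were 9 members of the poly-ADP-ribose polymerase (PARP) family, Parp1, Parp2, Parp3, Parp8, Parp9, Parp10, Parp11, Parp12 and Parp14, and Dtx3l, the partner gene of Parp9. They were chosen by name, with earlier results of these data known. All 10 were found once each among the 54680 loci of the deposited gene table. Expression had been measured by RNA sequencing in CT26 cells, a mouse colon carcinoma line from the BALB/c strain. In the knockdown group, CT26shSetdb1, a lentivirus delivered a short hairpin RNA to Setdb1, the gene of a histone methyltransferase that silences retroviral sequences and genes. The control group, CT26shCtrl, had been infected with the empty knockdown vector and is otherwise wild type per the labels, which do not say whether the vector makes any hairpin, how many hairpin sequences were used or whether the cells were clones. Both groups were grown for 6 days before collection, and the labels call the knockdown cells differentiated. Each group had 1 library, so no test between conditions was possible, and every difference below is a difference between 2 libraries. The hairpin, the culture and the library preparation cannot be told apart.

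PARP enzymes transfer ADP-ribose from NAD+ onto proteins or nucleic acids. PARP1, PARP2 and PARP3 bind broken DNA and act in its repair, and PARP1 and PARP2 build long poly-ADP-ribose chains there. Most of the other members add single ADP-ribose units or have no catalytic activity, and several of them, among them PARP9, PARP10, PARP11, PARP12 and PARP14, are known for induction by interferon and for roles in antiviral defence. PARP9 has little activity by itself and works in a complex with DTX3L, an E3 ubiquitin ligase of the Deltex family.

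Levels are given in FPKM, read fragments scaled to gene length and to 1 depth common to both libraries, and as the whole reads recovered from them. The knockdown library held 19045830 reads and the control library 18421604 reads. FPKM values and log2 ratios are not corrected for this and carry the 1.03 ratio of the totals. The log2 ratio is that of (FPKM + 1), knockdown over control, which understates changes at low levels. The read ratio is relative to each library's own total and carries a 95% exact (Clopper-Pearson) interval. That interval treats reads as independent and covers counting error only, not variation between cultures or libraries. Reads amplified without molecular identifiers are not independent molecules, so it can be too narrow even for counting error. In bulk RNA, fewer cells expressing a gene and less RNA per cell cannot be told apart. Setdb1 itself was at 10.4 FPKM in control cells and 2.47 FPKM in knockdown cells, a read ratio of 0.229 (0.202 to 0.259). Of 8 epithelial markers (43.2 and 127.9 FPKM in all), Epcam and Cdh1 had 0 reads in both libraries and Krt8 had 7 and 8 reads, while Krt18 (37.7 and 90.0 FPKM) and Krt20 (5.07 and 35.6 FPKM) were present and higher in knockdown cells, a difference whose part in the results below was not tested. Of 9 immune markers only Cd68 reached 1 FPKM (10.4 FPKM in control cells, 100.2 in knockdown cells). The other 8, with Ptprc, Cd3e and Adgre1 among them, had 7 reads in each library in all. The 4 endothelial markers had 1 read in all. Of 5 fibroblast markers (35.5 and 27.0 FPKM in all), Col1a1 was at 32.1 and 24.0 FPKM, Pdgfra went from 94 to 333 reads, Col3a1 from 493 to 163 and Dcn from 23 to 33, and Lum had 0 reads. The part of these differences in the results was not tested either.

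Of the 10 members, 5 were at least 2-fold higher in knockdown cells on the log2(FPKM + 1) scale, against 6.81% of the 10671 genes that reached 1 FPKM in at least 1 library. They were Parp9, Parp10, Parp12 and Parp14 of the interferon-linked genes and Parp3 of the DNA repair genes. No member was 2-fold lower, against 4.85% of all genes. Because the members were chosen with earlier results of these data known, these shares are a description and no test. The count of 5 rested on small margins. Parp10 and Parp14 lay just above the threshold, and the count was 3 (Parp9, Parp12 and Parp3) under scaling by the upper quartile, by the sum without the 100 highest genes or by the libraries' own read totals. All 10 members had at least 1 FPKM in 1 library, and Parp14 did so in knockdown cells alone.

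On the recovered reads, which need no pseudocount, the counting interval lay wholly above 2 for Parp9, Parp14, Dtx3l, Parp12 and Parp3, against 6.07% of all genes. It lay wholly below 0.5 for 0 members, against 5.35% of all genes. A smaller difference was enough to clear an interval around 1 at this depth. It was wholly above 1 for 7 members, against 35.2% of all genes, and wholly below 1 for Parp2, Parp8 and Parp11, against 40.6%. Shares of that size are the background for any single gene with a modest difference here.

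**Figure D1:**
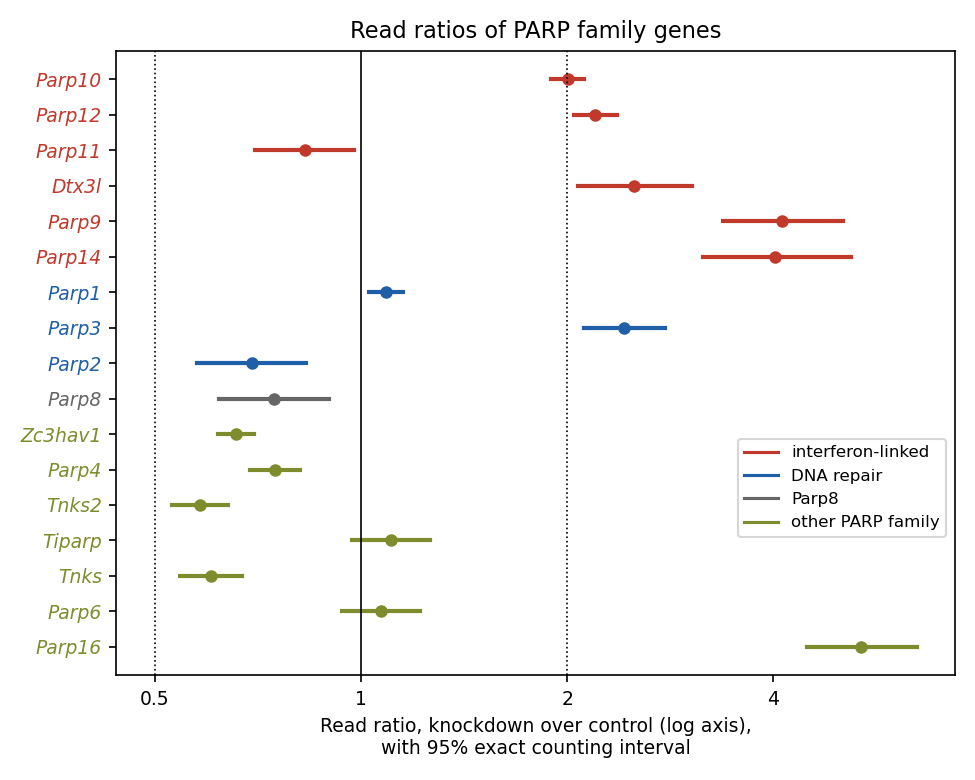
Read ratios, knockdown over control, for the 10 listed genes and 7 further PARP family genes on a log axis; points are ratios to the libraries' own totals, bars are 95% exact counting intervals, the solid line is 1 and dotted lines are 2-fold. Parp9 (4.11) and Parp14 (4.02) lie farthest right among the interferon-linked genes, Parp11 (0.828) lies left of 1, and Parp3 (2.42) lies away from Parp1 (1.09) and Parp2 (0.693).

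Parp9, Dtx3l and Parp14 lie together on chromosome 16 and started from low levels. Parp9 (ENSMUSG00000022906, plus strand, chromosome 16, 35938470 to 35972605 in GRCm38) was at 1.35 FPKM (123 reads) in control cells and 5.73 FPKM (523 reads) in knockdown cells. The read ratio was 4.11 (3.37 to 5.05) and the log2 ratio 1.52. Of all genes tested, 2.34% had a higher log2 ratio. Dtx3l (ENSMUSG00000049502, minus strand, chromosome 16, 35926511 to 35939151) was at 1.42 FPKM (152 reads) and 3.67 FPKM (394 reads), a read ratio of 2.51 (2.07 to 3.04) and a log2 ratio of 0.95. Dtx3l is thus under the 2-fold threshold on the log2(FPKM + 1) scale and above 2 on reads. With a pseudocount of 0.1 FPKM its log2 ratio was 1.31.

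PARP9 and DTX3L form a complex, and their messages were not raised in the same proportion. Parp9 stood at 0.951 of the Dtx3l level (FPKM) in control cells and at 1.56 of it in knockdown cells. The reads of Parp9 relative to Dtx3l were 1.64 times higher in knockdown cells, with a counting interval of 1.24 to 2.17. The gene models overlap head to head by 682 bases, of which 458 are exonic in both. These are 9.40% of the Parp9 exon bases and 8.0% of those of Dtx3l, and whether counting used strand is not given in the sources used here.

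Parp14 (ENSMUSG00000034422, minus strand, chromosome 16, 35832874 to 35871544) encodes a macrodomain protein that acts with STAT6 in the response to interleukin-4. It had the lowest control level of the listed genes, 0.470 FPKM (82 reads), and was at 1.96 FPKM (341 reads) in knockdown cells. The log2 ratio was 1.01, while the read ratio was 4.02 (3.15 to 5.18). The gap between these figures comes from the pseudocount of 1 FPKM, which exceeds the control level: with 0.1 FPKM the log2 ratio was 1.85. The Parp9 and Parp14 read ratios differed by a factor of 1.02 (0.739 to 1.41), so no difference between them was detectable at this depth. Relative to Dtx3l, Parp14 reads were 1.60 times higher in knockdown cells (1.17 to 2.21).

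The promoter window of Dtx3l is shown because Parp9 starts beside it in the opposite direction, and both genes were higher in knockdown cells. It covers chr16:35938978-35939277 (GRCm38.p6, RefSeq, minus strand), from 250 bases before to 50 bases after the annotated Dtx3l start, and lies inside the Parp9 model. It was searched on both strands for the core of the interferon-stimulated response element (GAAANNGAAA, the site of IRF and ISGF3 proteins) and for the gamma-activated site (TTCNNNGAA, bound by STAT dimers). Matches would be in capitals, and neither set of letters occurs in this window.
Dtx3l: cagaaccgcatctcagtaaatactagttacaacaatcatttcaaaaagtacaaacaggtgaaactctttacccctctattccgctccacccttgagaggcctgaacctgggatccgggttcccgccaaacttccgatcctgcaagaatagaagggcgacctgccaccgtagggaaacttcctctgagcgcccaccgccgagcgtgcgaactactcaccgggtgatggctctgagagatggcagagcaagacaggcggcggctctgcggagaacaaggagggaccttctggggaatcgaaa
Of all 32851 promoter windows of this length, 3.44% held the first motif and 8.30% the second. The table had windows for 7 of the 10 members, and Parp9, Parp10 and Parp14 had no entry.

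The genes flanking Parp9, Dtx3l and Parp14 were read for comparison. Within 100 kb of these 3 genes, 5 other genes reached 1 FPKM. Kpna1, the nuclear import gene next to Parp9, had 337 and 326 reads in the control and knockdown libraries, a log2 ratio of -0.03. Hspbap1, next to Parp14 on the other side, had 310 and 245 reads (log2 ratio -0.21), a read ratio of 0.764 (0.644 to 0.907) that lay below 1 by more than counting error. Fam162a, a mitochondrial gene known as a target of hypoxia signalling, lies 71156 bases past Parp9 and went from 479 to 3092 reads, a log2 ratio of 2.65. Dirc2 (-0.11) and Ccdc58 (0.59), outside the rule for named genes, complete the 5. The immediate neighbours on both sides were thus not higher in knockdown cells, while Fam162a was higher by more than the PARP genes were. Over the 22 non-member genes at 1 FPKM or more within 100 kb of any member, the median log2 ratio was 0.11. Of the 22, Fam162a was the 1 gene at least 2-fold higher and Rrp9 the 1 gene 2-fold lower, against 6.81% and 4.85% of all genes. That is about as many calls as 22 genes would give. Beside the DNA repair genes, Tep1 next to Parp2 was at -0.77 and Ttc5, on the other side of Parp2, at 0.39. Pcbp4 next to Parp3 was at 0.27 and Lin9 next to Parp1 at -0.16.

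**Figure D2:**
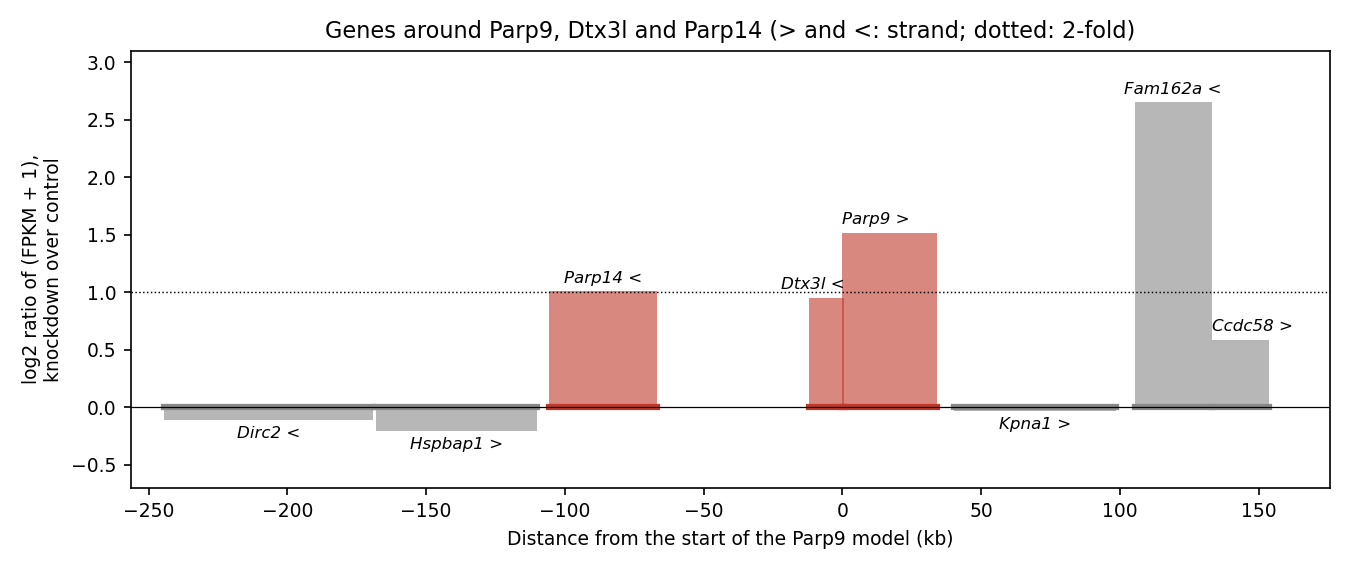
Genes at 1 FPKM or more around Parp9, Dtx3l and Parp14 on chromosome 16, by distance from the start of the Parp9 model in kb (x axis); box height is the log2 ratio of (FPKM + 1), knockdown over control, and arrows give the strand. The 3 PARP-linked genes (red) lie at 0.95 to 1.52 between Hspbap1 (-0.21) and Kpna1 (-0.03), with Fam162a at 2.65 farther out.

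Parp10 and Parp12 supplied most of the interferon-linked PARP message in both libraries. Parp10 (ENSMUSG00000063268, minus strand, chromosome 15, 76231174 to 76243441) encodes a mono-ADP-ribosyltransferase found through its binding to MYC. Its level was 23.2 FPKM (1856 reads) in control cells and 48.0 FPKM (3846 reads) in knockdown cells, the highest of the family in both. The read ratio was 2.0 (1.90 to 2.12), an interval that holds 2, and the log2 ratio 1.02. The end of Parp10 overlaps the start of Plec on the same strand over 205 exonic bases, 4.80% of the Parp10 exon bases. Plec had 20084 reads in control cells and 25895 in knockdown cells (log2 ratio 0.36). Grina, the next gene on the other side, had a log2 ratio of 0.07.

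Parp12 (ENSMUSG00000038507, minus strand, chromosome 6, 39086410 to 39118349) encodes a zinc finger mono-ADP-ribosyltransferase of the Golgi and of stress granules that restricts RNA viruses. It went from 14.8 FPKM (1105 reads) to 33.6 FPKM (2511 reads), a read ratio of 2.20 (2.05 to 2.36) and a log2 ratio of 1.13. Its model overlaps no other gene with reads. In FPKM, Parp12 was at 0.637 of the Parp10 level in control cells and at 0.699 of it in knockdown cells. The reads of Parp12 relative to Parp10 differed between the libraries by a factor of 1.10, with a counting interval of 1.0 to 1.20.

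Parp11 (ENSMUSG00000037997, plus strand, chromosome 6, 127446840 to 127494261) was the exception among the 6 genes counted here as interferon-linked. It encodes a mono-ADP-ribosyltransferase of the nuclear envelope, which is known to modify a ubiquitin ligase and so lower the type I interferon receptor. It had 2.38 FPKM (313 reads) in control cells and 2.04 FPKM (268 reads) in knockdown cells. The read ratio was 0.828 (0.701 to 0.978) and the log2 ratio -0.15. Relative to Parp11, the reads of Parp9 were 4.96 times higher in knockdown cells (3.82 to 6.47).

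The Parp11 and Parp12 windows are shown together, since these genes differed in direction and only the gene that was lower holds the interferon motifs. Parp12 covers chr6:39118300-39118599 (minus strand) and Parp11 the first of its windows, chr6:127446590-127446889 (plus strand), both GRCm38.p6 from RefSeq. Capitals mark motif matches. Parp11 has GAAANNGAAA on the minus strand, beginning 44 bases before its annotated start, and TTCNNNGAA beginning 37 bases before it. The matches share 3 bases.
Parp11: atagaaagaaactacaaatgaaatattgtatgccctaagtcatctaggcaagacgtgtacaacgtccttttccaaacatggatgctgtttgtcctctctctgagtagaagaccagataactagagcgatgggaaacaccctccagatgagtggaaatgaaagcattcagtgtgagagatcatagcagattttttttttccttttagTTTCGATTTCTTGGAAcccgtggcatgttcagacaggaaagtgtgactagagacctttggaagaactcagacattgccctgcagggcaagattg
Parp12: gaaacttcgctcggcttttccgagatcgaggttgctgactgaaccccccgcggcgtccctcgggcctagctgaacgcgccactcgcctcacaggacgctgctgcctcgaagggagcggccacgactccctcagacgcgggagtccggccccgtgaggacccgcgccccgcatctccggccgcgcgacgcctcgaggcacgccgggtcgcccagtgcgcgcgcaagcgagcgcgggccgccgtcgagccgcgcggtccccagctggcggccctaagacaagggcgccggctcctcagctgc
The Parp12 window has 73.7% G and C against 42.0% in that of Parp11, and it holds neither motif. A second Parp11 window, at chr6:127453377-127453676, holds neither. Of the members with an entry, Parp11 alone had a match to either motif, and it was the interferon-linked gene that was lower. Parp9, Parp10 and Parp14, all higher in knockdown cells, had no entry. A link between motif and direction was not tested. A match describes the letters only and is no measured binding site. By comparison, 11 of the 21 interferon-stimulated genes with an entry held the first motif.

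The 6 interferon-linked genes, chosen with earlier results of these data known, were taken as a list. Their median log2 ratio was 1.01, against -0.00039 over all genes tested, a description and no test. Their reads added up to 3631 in control cells and 7883 in knockdown cells, mostly those of Parp10 and Parp12. The median was 0.98 under scaling by own read totals and by the upper quartile, and 0.99 by the sum without the 100 highest genes.

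Of the DNA repair genes, Parp3 and, by a small margin, Parp1 were higher in knockdown cells, and Parp2 was lower. Parp1 (ENSMUSG00000026496, plus strand, chromosome 1, 180568924 to 180601254), the main sensor of DNA strand breaks, was at 23.1 FPKM (2289 reads) in control cells and 26.0 FPKM (2574 reads) in knockdown cells. Its log2 ratio was 0.16 and its read ratio 1.09 (1.03 to 1.15). Parp2 (ENSMUSG00000036023, plus strand, chromosome 14, 50807841 to 50821301), which can stand in for part of the work of PARP1, was at 4.21 FPKM (286 reads) and 3.02 FPKM (205 reads). Its log2 ratio was -0.37 and its read ratio 0.693 (0.577 to 0.832). Parp1 message stood at 5.49 times the Parp2 level (FPKM) in control cells and 8.61 times in knockdown cells.

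Parp3 (ENSMUSG00000023249, minus strand, chromosome 9, 106470322 to 106476949), a mono-ADP-ribosyltransferase that acts in double-strand break repair by end joining, was the member of this group that passed the 2-fold threshold. It had 4.30 FPKM (298 reads) in control cells and 10.8 FPKM (746 reads) in knockdown cells, a read ratio of 2.42 (2.11 to 2.78) and a log2 ratio of 1.15. Its level was close to that of Parp2 in control cells (1.02 times) and 3.57 times that of Parp2 in knockdown cells. Relative to Parp1, Parp3 reads were 2.23 times higher in knockdown cells (1.92 to 2.58). The read ratio of Parp3 did not differ from that of the interferon-linked Parp12 beyond counting error (a factor of 1.10, 0.944 to 1.29). It was 1.21 times that of Parp10 (1.04 to 1.40), and that of Parp9 was 1.70 times that of Parp3 (1.33 to 2.17). In read ratio Parp3 thus lay between Parp10 and Parp9, while Parp11 lay between Parp2 and Parp1.

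Parp3 also shares its start region with a gene that differed in the opposite direction. Rrp9, a component of the small nucleolar ribonucleoprotein that processes ribosomal RNA, runs the other way from there and had 37.8 FPKM (2078 reads) in control cells and 17.1 FPKM (941 reads) in knockdown cells. Its log2 ratio was -1.10 and its read ratio 0.438 (0.405 to 0.473). The models overlap by 987 bases, of which 20 are exonic in both, 0.541% of the Parp3 exon bases. The window around the Parp3 start, chr9:106476900-106477199 (GRCm38.p6, RefSeq, minus strand), is shown because it lies inside the Rrp9 model. It holds neither interferon motif.
Parp3: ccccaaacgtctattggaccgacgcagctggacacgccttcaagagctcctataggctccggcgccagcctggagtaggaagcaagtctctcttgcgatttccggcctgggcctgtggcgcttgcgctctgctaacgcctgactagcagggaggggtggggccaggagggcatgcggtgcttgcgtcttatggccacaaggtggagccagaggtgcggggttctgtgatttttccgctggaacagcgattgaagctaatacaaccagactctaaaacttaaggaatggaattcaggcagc
Parp1, Parp2 and Parp8 windows, not shown, hold neither motif as well.

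Parp8 (ENSMUSG00000021725, minus strand, chromosome 13, 116854820 to 117025537) encodes a mono-ADP-ribosyltransferase whose function is little known, and it was counted with neither group. It was at 1.62 FPKM (269 reads) in control cells and 1.25 FPKM (208 reads) in knockdown cells, a read ratio of 0.748 (0.621 to 0.900) and a log2 ratio of -0.22. Its level in knockdown cells was the lowest of the family.

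By level, Parp10 (23.2 FPKM), Parp1 (23.1), Zc3hav1 (21.5) and Parp12 (14.8) led the family in control cells. In knockdown cells the order was Parp10 (48.0 FPKM), Parp12 (33.6), Parp1 (26.0) and Zc3hav1 (14.6). Over the 17 genes, Dtx3l included, summed FPKM was 128 in control cells and 185 in knockdown cells. Parp10 made up 18.0% of that sum in control cells and 26.0% in knockdown cells, and Parp12 11.5% and 18.2%. The share of Parp1 was 18.0% and 14.1%. Parp9 moved from rank 16 to rank 9 and Parp3 from rank 8 to rank 5, while Parp2 moved from rank 9 to rank 13.

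**Figure D3:**
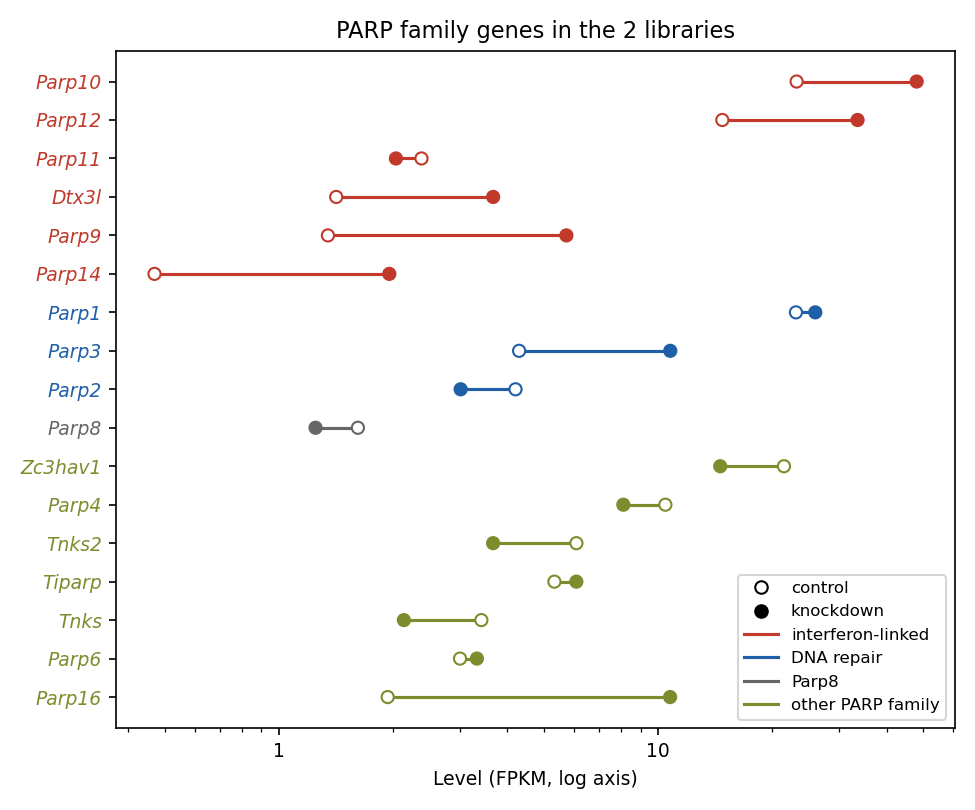
Level in FPKM (log axis) of the 10 listed genes and 7 further PARP family genes in control cells (open circles) and knockdown cells (filled circles), 1 library each; colours give the group. Parp10 is highest in both libraries (23.2 and 48.0 FPKM), and Parp14 is lowest in control cells (0.470 FPKM). Lower in knockdown cells are Parp11, Parp2 and Parp8 of the listed genes and Zc3hav1, Parp4, Tnks and Tnks2 of the further ones.

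The other 7 genes of the family place these values. Parp16, which encodes a tail-anchored PARP of the endoplasmic reticulum linked to the unfolded protein response, differed most of the whole family. It had 1.94 FPKM (141 reads) in control cells and 10.8 FPKM (783 reads) in knockdown cells, a read ratio of 5.37 (4.48 to 6.47) and a log2 ratio of 2.0. Zc3hav1, the zinc finger antiviral protein that binds CpG-rich viral RNA and lacks catalytic activity, was lower, with 2621 and 1780 reads and a log2 ratio of -0.53. Its read ratio was 0.657 (0.618 to 0.698), below that of Parp11, and it was not counted here with the interferon-linked genes. The tankyrases, which act in telomere and Wnt pathway regulation, were also lower: Tnks had a log2 ratio of -0.49 and Tnks2 of -0.60. Parp4, the PARP of the vault particle, was at -0.33. Parp6 (0.11) and Tiparp (0.16), a target of the aryl hydrocarbon receptor, had counting intervals that hold a read ratio of 1. Of these 7 genes, 1 was 2-fold higher and 0 were 2-fold lower, against 6.81% and 4.85% of all genes, counts too small to set the 7 apart. The median log2 ratio was -0.33. Their mean was 0.0458, of the opposite sign, with Parp16 as the 1 large value. The Parp4 window holds 2 matches to GAAANNGAAA, and Parp4 was lower. The Parp16 window holds TTCNNNGAA, and Parp16 was higher. Tnks had no entry, and whether motif and direction go together was not tested.

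Genes that signal from or respond to interferon were set beside the members. Of 26 interferon-stimulated genes outside the PARP family, 21 were at least 2-fold higher in knockdown cells, against 6.81% of all genes. The median log2 ratio of the 26 was 2.10. They ran from Ifit2 (0.04) to the oligoadenylate synthetase-like gene Oasl2 (3.67). The largest value of the 10 listed genes, that of Parp9, was exceeded by 18 of the 26 on the log2 scale and by 20 of the 26 in read ratio. The read ratios of Parp10, Parp12, Dtx3l and Parp3 were each exceeded by 25 of the 26. Among 19 genes of interferon signalling, 5 were 2-fold higher and 0 were 2-fold lower on the log2(FPKM + 1) scale, against 6.81% and 4.85% of all genes. Their median was 0.66, from Jak2 (-0.82) to the transcription factor Irf7 (4.91). On reads, the counting interval lay wholly above 2 for 5 of the 19 and wholly below 0.5 for 1, against 6.07% and 5.35%. The 1 below was Jak2, with 239 and 94 reads, a read ratio of 0.380 (0.296 to 0.485). These lists are a yardstick only, chosen with the interferon response of these libraries known.

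**Figure D4:**
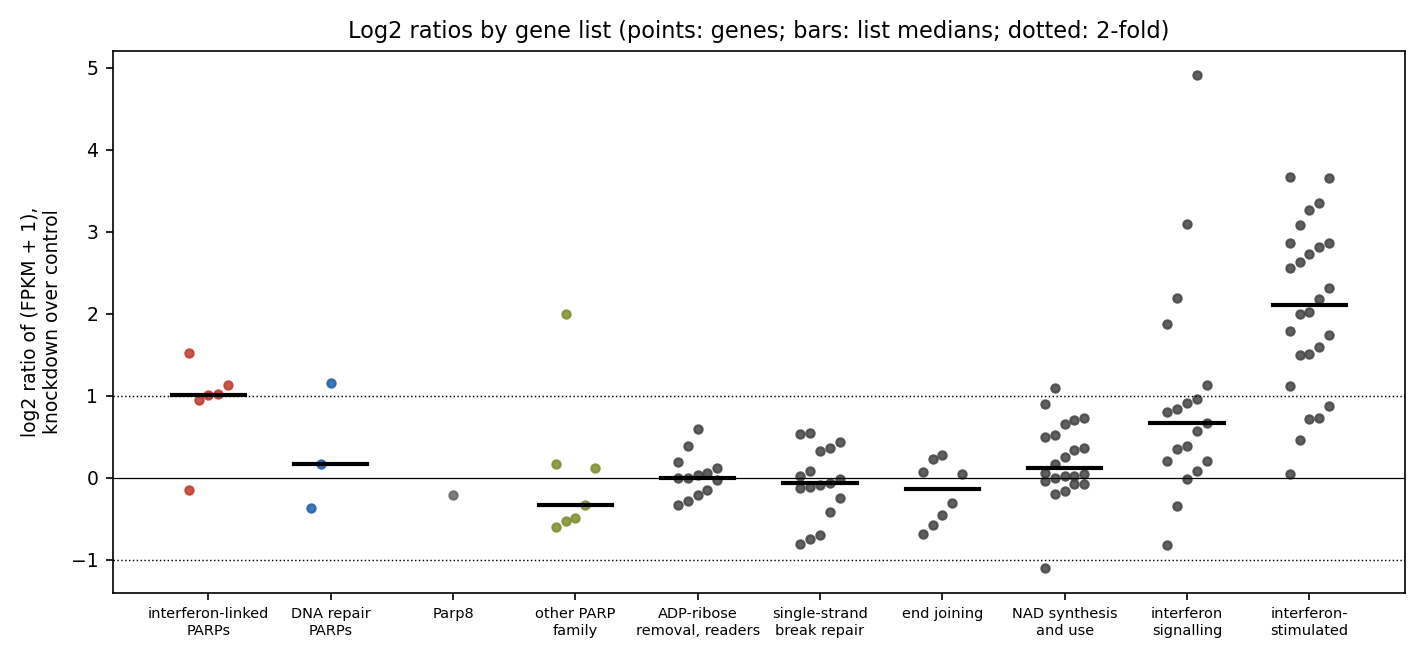
Log2 ratio of (FPKM + 1), knockdown over control (y axis), for each gene of 10 lists; points are genes, black bars are list medians and dotted lines mark 2-fold. The interferon-linked PARP genes have a median of 1.01, below the 2.10 of other interferon-stimulated genes, with Parp11 at -0.15 apart from the other 5.

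Genes that work with PARP1 or undo ADP-ribosylation were read against the shares over all genes, 6.81% higher and 4.85% lower, which leave few calls to be made in lists of this size. Of 17 single-strand break repair genes, all above 1 FPKM in both libraries, 0 passed the threshold in either direction, and the median log2 ratio was -0.07. The lowest was the abasic site nuclease gene Apex1 (-0.81), which shares 61.7% of its exon bases with Pip4p1. The highest was the flap endonuclease gene Fen1 (0.55), with 82 and 141 reads. Fen1 shares 78.8% of its exon bases with Gm10143. Hpf1, the cofactor that directs PARP1 and PARP2 to serine, had 297 and 405 reads (0.36), and the scaffold gene Xrcc1 had 1996 and 1971 reads (-0.02). Both genes were named after their values were seen. Of 13 genes found for removal or reading of ADP-ribose, 9 reached 1 FPKM and 2 had 0 reads in both libraries. None of the 13 passed the threshold, and the median over genes with a mean of 1 FPKM or more was 0.05, from Adprhl2 (-0.34), a serine ADP-ribosylhydrolase, to the ADP-ribose pyrophosphatase gene Nudt9 (0.59). Parg, the glycohydrolase that degrades the chains, also named after its values were seen, had 143 and 118 reads (-0.15). End joining genes, the setting in which PARP3 acts, had a median of -0.13 over 8 genes, with 0 past the threshold, from Xrcc6 (-0.69) to Trp53bp1 (0.23) among the 4 at 1 FPKM. The other 4 were under 1 FPKM, where this scale shrinks a change. On reads, the counting interval lay below 1 for 4 of the 8 and above 1 for 2, against 40.6% and 35.2% of all genes. Counts of that size in 8 genes do not set the list apart. The reads of all 8 added up to 3060 in control cells and 2324 in knockdown cells. Prkdc, the catalytic subunit of the DNA-dependent protein kinase, named after its values were seen, went from 140 to 64 reads, a read ratio of 0.442 (0.324 to 0.598).

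The protein-coding genes whose pair of levels lay nearest to those of Parp9 and of Parp2, the members with the highest and lowest log2 ratios, were found by distance in the plane of log2(FPKM + 1) over the 2 libraries. With 2 libraries this likeness says only that level and ratio are alike. For Parp9 they were Ces1f (1.43 and 5.54 FPKM in the control and knockdown libraries), Ssc5d (1.5 and 5.69) and Dpf1 (1.27 and 6.25). For Parp2 they were Myo19 (4.24 and 3.06), Frs2 (4.14 and 3.07) and Tti2 (4.18 and 3.09).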

How the data were processed

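Total RNA from CT26 cells was sequenced in 1 library per group, and samples were grouped by the genotype in the labels. The authors deposited FPKM values for 54680 loci, with gene length, position and type, per the file headers. The submitters' processing notes name CASAVA, HISAT2, featureCounts 1.5.0-p3 and GRCm38, with no role or order. Strand setting, filters and annotation release are not given in the sources used here. Positions matched GENCODE M21 for 53499 of the 54409 IDs found there (98.3%) and for all 10 members.

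FPKM times gene length was a whole multiple (within 1e-04) of 1 step for 100% of values above 0, so reads were recovered. Both libraries had been divided by 1 depth, 18731117, so the log2 ratios carry the 1.03 ratio of the totals.

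Log2 ratios used a pseudocount of 1 FPKM. Background counts covered genes that reached 1 FPKM in either library, and list counts and medians covered every gene found. Changed meant 2-fold. No p-value was computed. Members and lists were chosen with earlier results of these data known. Named genes were Setdb1, all members, the other PARP family genes, the highest and lowest gene of each list, neighbours within 100 kb (overlapping, adjacent or 2-fold different) and the 3 nearest genes by level. Parp9, Parp10, Parp14 and Tnks had no promoter entry. Alternatives were other pseudocounts, scalings, filters, thresholds, log2(CPM + 1), means, and counting intervals. The interval past 2-fold was added after seeing the data. The calculations were tested on simulated data. Analyses ran in scipy 1.17.1, pandas 2.3.3, numpy 2.4.6 and matplotlib 3.10.9 under Python 3.11.15.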

Additional observations from a re-analysis of the deposited data

How the results depend on the processing

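Over 171 alternative values of 22 results, 147 kept to the counting interval or, for counts, to 1.5 times the value, 24 moved and 0 reversed after passing 2-fold. The count of members 2-fold higher, 5, became 3 under scaling by the upper quartile, by the sum without the 100 highest genes and by own read totals, and 0 at a 4-fold threshold. Members called lower numbered 3, in place of 0, where the counting interval had only to lie below 1. For all genes, the counts of 727 higher and 518 lower became 1134 and 870 with a pseudocount of 0.1 FPKM, 1804 and 1523 at 1.5-fold, 116 and 56 at 4-fold, and 3755 and 4335 by the counting interval around 1. The mean in place of the median gave 0.0458 for the other PARP family genes and 0.95 for interferon signalling. NAD genes with a mean of 1 FPKM or more had a median of 0.35. Interferon-stimulated genes were at 2.88 with a pseudocount of 0.1 FPKM and at 2.68 on log2(CPM + 1). Those 2 settings also moved Parp9 (2.01 and 1.89), Parp14 (1.85 and 1.79) and Dtx3l (1.31 and 1.23) upward, since they make the pseudocount smaller relative to the level. The cause of the other moves was not tested, apart from thresholds and means, which move values by construction. No paired analysis was possible because only 1 library was sequenced per group, and leaving out a library was impossible for the same reason. Depth limits Parp14 and Parp9 most, with 82 and 123 reads in the control library.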

Other observations

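NAD+ is the substrate of every active PARP, and genes of its synthesis and use were read as well. Of 22 such genes, 14 reached 1 FPKM in at least 1 library. On the log2(FPKM + 1) scale, 1 passed 2-fold upward and 1 downward in knockdown cells, against 6.81% and 4.85% of all genes. That is about as many calls as the size of the list gives. On reads, the counting interval lay above 1 for 10 of the 22 and below 1 for 3, against 35.2% and 40.6%. The median log2 ratio was 0.11, and 0.35 over genes with a mean of 1 FPKM or more. The higher gene was Nmnat2, which encodes a cytoplasmic enzyme of the last step of NAD+ synthesis. It had 59 reads in control cells and 250 in knockdown cells, a read ratio of 4.10 (3.08 to 5.54) and a log2 ratio of 1.10. The lower gene was Nnmt, which methylates nicotinamide and so takes it out of the salvage route. Its level was 25.8 FPKM in control cells and 11.4 FPKM in knockdown cells, a read ratio of 0.430 (0.377 to 0.489) and a log2 ratio of -1.10. Nampt, the rate-limiting enzyme of the salvage route, had 404 and 548 reads (log2 ratio 0.37), and the nuclear synthesis enzyme gene Nmnat1 had 85 and 208 reads (0.90). Bst1, a surface enzyme that consumes NAD+, had 0 reads in control cells and 41 in knockdown cells, and the counting interval of its read ratio starts at 10.3. Nampt, Nmnat1 and Bst1 were named after their values were seen.

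Dtx3l belongs to the Deltex family of ubiquitin ligases, and the other 4 members were read beside it. None passed 2-fold on the log2(FPKM + 1) scale, as Dtx3l did not. Against 6.81% higher and 4.85% lower of all genes, 4 genes are too few to show a difference. Only 2 of the 4 reached 1 FPKM. Dtx2 had 1433 and 1842 reads in the control and knockdown libraries (log2 ratio 0.34) and Dtx3 had 1325 and 1370 reads (0.05). Dtx4 was under 1 FPKM in both libraries, where that scale shrinks a change, and had 28 and 76 reads, a read ratio of 2.63 (1.68 to 4.21). Dtx1 had 0 reads and 1 read, too few for a ratio.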
